A study of Mus musculus with 10 samples.

Results

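The genes of 9 cell surface markers used to recognise or sort mouse primordial germ cells (PGCs), the embryonic precursors of oocytes and sperm, were read from RNA sequencing of stem cells, PGC-like cells and PGCs. They were chosen by symbol, as Kit, Itgb3, Fut4, Cxcr4, Alpl, Ifitm1, Ifitm3, Cd9 and Pecam1, and all 9 are among the 36066 genes of the table. The study asked whether parthenogenetic embryonic stem cells, which derive from activated oocytes and have no paternal genome, form PGC-like cells (PGCLCs) in the way that stem cells of fertilized embryos do. The table holds 10 libraries in 5 groups of 2, all of strain C57BL6, namely a female embryonic stem cell line (ESC), a parthenogenetic line (pESC), the PGCLCs derived from each (ESC-PGCLC and pESC-PGCLC) and PGCs. For PGCLCs, stem cells were turned into epiblast-like cells over 2 days with bFGF and activin A, and then cultured for 4 days with BMP4 at 500 ng/mL, SCF (the ligand of Kit) at 100 ng/mL, EGF at 50 ng/mL and LIF at 1000 IU/mL. The PGCLCs were then sorted on integrin β3 (CD61) and SSEA1. The study's methods describe PGCs from female embryos of 2 ages, sorted either on CD61 and SSEA1 or with magnetic beads against SSEA1. The labels of the PGC libraries give strain and cell type but neither the age nor the sort, so it is not known whether both libraries are of 1 age, and age and replicate cannot be told apart within this group. The study calls its RNA-seq replicates biological, and the labels do not say which cultures or embryos they came from.

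Mouse PGCs arise from epiblast cells that receive BMP signals, migrate through the hindgut to the gonads, and carry surface proteins through which they receive survival and guidance cues. The receptor tyrosine kinase Kit binds SCF, the product of Kitl, and the chemokine receptor Cxcr4 binds the chemokine Cxcl12, and both receptor and ligand pairs are needed for migrating PGCs to survive and to reach the gonads. SSEA1 is a sugar, the Lewis X epitope, made by fucosyltransferases such as those encoded by Fut4 and Fut9, so that no gene encodes it directly, and tissue nonspecific alkaline phosphatase (Alpl), the interferon-induced transmembrane proteins Ifitm1 and Ifitm3, the tetraspanin Cd9 and the adhesion molecule Pecam1 have long served to mark stem cells and early germ cells.

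The values are TPM, read numbers divided by gene length and brought to 1 common sum per library. Reads on genes, recovered from TPM and exon length, numbered from 6779838 (ESC-PGCLC replicate 2) to 18572901 (ESC replicate 2), and for a gene with 2182 nt of exons, the median, 3 reads were worth 0.116 to 0.338 TPM. Tests were run with limma on log2(TPM + 1) over the 27259 genes that reached 0.1 TPM in 2 or more libraries, all 9 marker genes included. A gene was called where its Benjamini-Hochberg adjusted p was under 0.05 and its change in TPM + 1 was 2-fold or more. Differences are given on that log2 scale with their standard error (SE), which understates the change of genes with low values, and every adjusted p is from limma over all genes tested. For groups of 2 libraries, exact permutation (two-sided) would give p = 0.333 at the smallest. As a check of the labels, the summed level of 12 germ cell markers such as Dppa3 and Nanos3 was 411 to 940 TPM in the stem cells and 6169 to 8273 TPM in PGCLCs and PGCs. Pou5f1, which PGCs are known to share with stem cells, went the other way, with 7.49 to 23.5 TPM in stem cells and 0 to 3.14 TPM in PGCLCs and PGCs. Haematopoietic markers, almost entirely haemoglobin genes, summed to 1.36 to 4.73 TPM in stem cells, 444 to 511 TPM in ESC-PGCLCs, 2264 to 2804 TPM in pESC-PGCLCs and 1732 to 1945 TPM in PGCs. Ptprc, which marks white blood cells, stayed at or below 0.103 TPM in every library. Macrophage markers went both ways. Lyz2 and C1qb were at 0 in stem cells and reached 2.75 and 2.16 TPM in pESC-PGCLCs and 2.44 and 1.44 TPM in PGCs. Cd68 was at 42.3 to 75.3 TPM in stem cells and at most 4.57 TPM elsewhere. The part of blood cells in the marker values was not tested.

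The sequences before 4 of the start sites are shown as examples of unlike patterns, Cxcr4 read only in germ cell libraries, Cd9 and Ifitm3 high in stem cells, and Alpl called lower in ESC-PGCLCs but not called in pESC-PGCLCs, each against its stem cells. They are the bases up to 250 before the RefSeq start (GRCm38.p6), read 5′ to 3′ on the strand of the gene, without bases that GENCODE M21 counts to the gene, and the capitals mark CG dinucleotides, where DNA methylation occurs.

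Cxcr4, chr1:128592300-128592549, minus strand: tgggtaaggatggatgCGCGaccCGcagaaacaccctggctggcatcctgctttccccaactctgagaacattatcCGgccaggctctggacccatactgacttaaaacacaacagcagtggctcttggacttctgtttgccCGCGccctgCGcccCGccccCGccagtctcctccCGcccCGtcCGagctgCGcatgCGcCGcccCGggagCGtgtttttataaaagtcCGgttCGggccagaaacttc

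Alpl, chr4:137796385-137796634, minus strand: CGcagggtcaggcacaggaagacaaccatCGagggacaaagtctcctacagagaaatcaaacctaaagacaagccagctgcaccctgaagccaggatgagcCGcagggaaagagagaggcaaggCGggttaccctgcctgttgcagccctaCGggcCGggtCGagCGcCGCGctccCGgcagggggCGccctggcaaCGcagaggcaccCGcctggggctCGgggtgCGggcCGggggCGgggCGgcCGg

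Cd9, chr6:125494792-125495010, minus strand: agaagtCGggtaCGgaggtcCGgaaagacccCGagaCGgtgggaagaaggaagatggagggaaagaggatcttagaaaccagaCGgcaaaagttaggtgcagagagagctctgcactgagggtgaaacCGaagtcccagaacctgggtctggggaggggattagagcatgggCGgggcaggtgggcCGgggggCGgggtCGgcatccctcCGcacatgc

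Ifitm3, chr7:141010771-141010994, minus strand: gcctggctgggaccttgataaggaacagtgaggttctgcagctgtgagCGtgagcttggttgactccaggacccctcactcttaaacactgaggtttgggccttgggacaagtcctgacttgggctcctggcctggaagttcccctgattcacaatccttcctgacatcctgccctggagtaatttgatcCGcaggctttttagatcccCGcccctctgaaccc

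Over the full 250 bases before the start, CG dinucleotides numbered 19 for Cxcr4, 20 for the upstream of the 2 listed starts of Alpl (4 for the other), 16 for Cd9 and 3 for Ifitm3, against a median of 6 over 32851 RefSeq promoters. At least as many as in Cxcr4 were found in 19.7% of all promoters, and at least as many as in Ifitm3 in 71.0%. Fut4 had 16, Kit 17 or 18 at its 2 listed starts, and Ifitm1 4. For Fut4, Ifitm1 and the second start of Alpl, all 250 of these bases lie inside the gene as GENCODE M21 counts it. Their counts and matches are therefore not those of bases upstream of the gene. Searched on both strands over 300 bases, from 250 before the start to 50 after it, the letters TATAAA lay at position -30 of Cxcr4, were also present at the second start of Alpl, and occurred in 13.6% of all promoters. The letters GAAA, then any 2 bases, then GAAA, the core of the element through which interferon acts, occurred at positions 3 and 20 after the start of Ifitm3, were not found in this window of Ifitm1, and were present in 3.44% of all promoters. The letters GGGCGG were present at Kit, Cxcr4, Ifitm3, Cd9 and the upstream start of Alpl (35.7% of all promoters), and GCC, then any 3 bases, then GGC at Kit, Fut4, Cd9 and the upstream start of Alpl (16.6%). Ifitm1 held none of these 4 in this window, and the bases upstream of its GENCODE start were not searched. These matches describe the letters and no binding was measured.

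**Figure D1:**
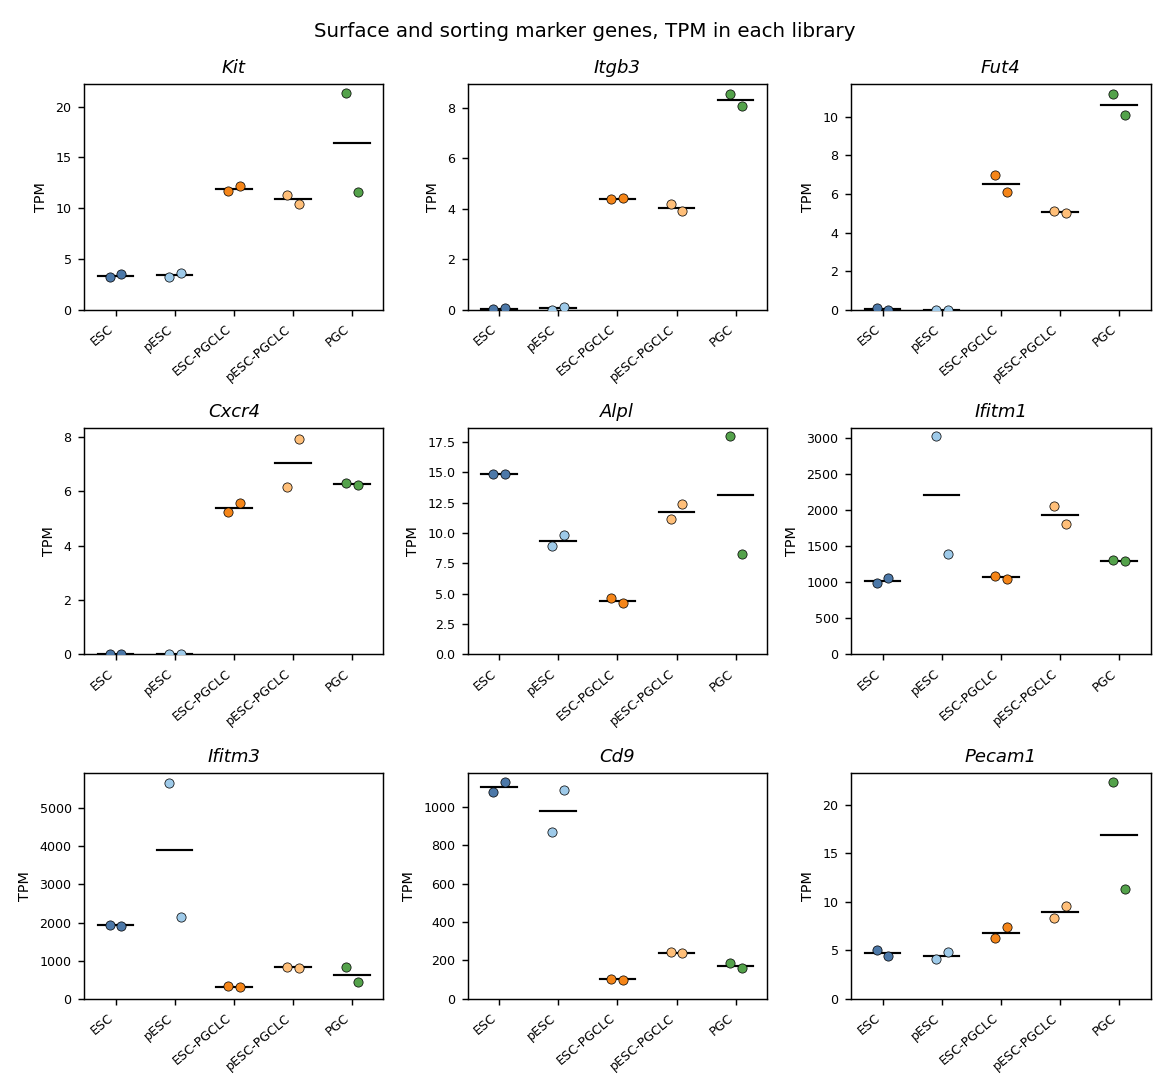
TPM (vertical axes, each from 0) of the 9 marker genes in each library, with 1 point per library and a bar at the mean of each group of 2. Itgb3, Fut4 and Cxcr4 were at or near 0 in all 4 stem cell libraries and between 3.91 and 11.2 TPM in the other 6, while Cd9 fell from at least 869 TPM to at most 245 TPM.

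From stem cells to PGCLCs the markers did not move together. In ESC-PGCLCs against ESCs, 4 of 9 were called higher (Kit, Itgb3, Fut4 and Cxcr4), where 15.3% of all genes tested were, and 3 lower (Alpl, Ifitm3 and Cd9), where 14.5% of all genes were. In pESC-PGCLCs against pESCs, the same 4 were called higher, beside 20.8% of all genes, and 2 lower (Ifitm3 and Cd9), beside 6.8% of all genes. The median difference of the 9 markers was 0.45 in the first comparison and 0.87 in the second, and the medians of all genes were 0.049 and 0.22. The all-gene split of the second comparison depended on scaling, with 5681 genes higher and 1854 lower as deposited and 2280 higher and 5010 lower once libraries were centred on 9024 genes that reached 1 TPM everywhere (median centring), which moved the median of all genes to -0.51.

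**Figure D2:**
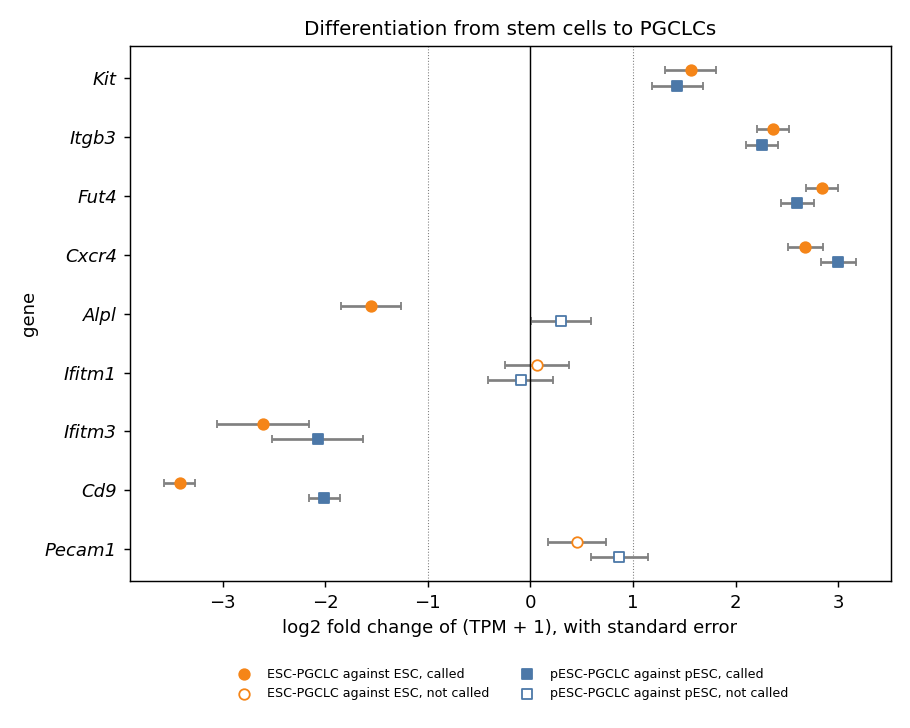
Difference in log2(TPM + 1) between PGCLCs and their stem cells for each marker gene, with points for ESC-PGCLC against ESC and squares for pESC-PGCLC against pESC, bars of 1 standard error, filled symbols for called differences and dotted lines at 2-fold. The symbols of Kit, Itgb3, Fut4 and Cxcr4 lie to the right for both kinds of cell, and those of Ifitm3 and Cd9 to the left. Those of Alpl lie on opposite sides of 0, and only the difference in ESC-PGCLCs was called.

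Itgb3 encodes integrin β3, the CD61 antigen of the sort, and lies on chromosome 11 from 104608000 to 104670476 (GRCm38). It was at 0.0368 and 0.0570 TPM in ESCs, 0 and 0.117 TPM in pESCs, 4.38 and 4.41 TPM in ESC-PGCLCs, 4.18 and 3.91 TPM in pESC-PGCLCs and 8.53 and 8.07 TPM in PGCs. PGCs were highest, ESC-PGCLCs and then pESC-PGCLCs came next with no overlap between these groups, and ESCs and pESCs overlapped at the bottom. The stem cell values rest on 6 reads in ESCs and 6 in pESCs. On the scale of TPM, the summed reads put ESC-PGCLCs 91.2 times above ESCs (95% exact binomial interval 41.3 to 251, counting error only) and pESC-PGCLCs 69.3 times above pESCs (31.6 to 190). On the log2 scale the differences were 2.37 ± 0.16 (SE, adjusted p = 1.56e-05) and 2.25 ± 0.16 (adjusted p = 3.10e-05). Because PGCLCs were sorted on this protein, and PGCs may have been, its RNA is a check of the gate and not an independent outcome, and the sort cannot be told apart from the cell type.

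Integrin β3 pairs with αv (Itgav) or αIIb (Itga2b), and Itgav was the α partner present. It was at 3.39 and 3.84 TPM in ESCs, 3.62 and 5.74 TPM in pESCs, 5.67 and 5.49 TPM in ESC-PGCLCs, 5.11 and 4.35 TPM in pESC-PGCLCs and 7.28 and 7.71 TPM in PGCs, and it was not called in either differentiation (differences 0.51 and 0.035, adjusted p = 0.0724 and 0.929). Itga2b did not exceed 0.431 TPM in any library. The markers of megakaryocytes, which carry αIIbβ3, summed to 1.62 to 2.31 TPM in stem cells and to 2.77 to 15.1 TPM in the germ cell libraries, a part in the Itgb3 values that was not tested. Of 15 further integrin and matrix genes, 2 were called higher and 4 lower in ESC-PGCLCs, and 2 higher and 2 lower in pESC-PGCLCs (medians -0.0080 and 0.22, against 0.049 and 0.22 over all genes). Itgb1, the β1 chain shared by most integrins, rose in both (differences 1.41 and 1.82, adjusted p = 0.000385 and 0.00013). Spp1, which encodes osteopontin, a ligand of αvβ3, fell in both, from 5612 to 8221 TPM in the stem cells to 119 to 402 TPM in PGCLCs. The other called genes were Lamb1, which was higher, and Lama5, which was lower, in both, and Itgb5 and Lamc1, which were lower in ESC-PGCLCs.

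Fut4 encodes a fucosyltransferase that can complete the Lewis X epitope read as SSEA1, and lies on chromosome 9 from 14748320 to 14752393. It was at 0.0799 and 0.0206 TPM in ESCs, which is 4 reads in all, and at 0 in both pESC libraries. Its level was 6.97 and 6.09 TPM in ESC-PGCLCs, 5.10 and 5.03 TPM in pESC-PGCLCs and 11.2 and 10.1 TPM in PGCs. No neighbouring groups in this order overlapped. ESC-PGCLCs stood 141 times above ESCs by reads (interval 54.4 to 522), and pESC-PGCLCs at least 59.3-fold above pESCs, the lowest library set against the floor of 3 reads in a pESC library. The log2 differences were 2.84 ± 0.16 (SE, adjusted p = 7.52e-06) and 2.60 ± 0.16 (adjusted p = 1.72e-05). Because PGCLCs were sorted on SSEA1, and both sorts described for PGCs use it, Fut4 RNA is not independent of the gate. The sort cannot be told apart from the cell type for this gene either.

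Fut9, the enzyme known for making SSEA1 in mouse stem cells and brain, ran opposite to Fut4. It was at 5.96 and 7.35 TPM in ESCs, 3.39 and 6.96 TPM in pESCs, 0.684 and 0.533 TPM in ESC-PGCLCs, 1.26 and 1.67 TPM in pESC-PGCLCs and 1.04 and 1.51 TPM in PGCs. All 4 stem cell libraries lay above the other 6, and it fell by 2.25 and 1.27 on the log2 scale in the 2 differentiations (adjusted p = 0.000413 and 0.00825). Fut11 rose in both (1.25 and 1.95, adjusted p = 0.000517 and 7.42e-05) and reached 15.7 and 17.9 TPM in PGCs. Fut10 was at 0.750 to 1.11 TPM in stem cells and 1.26 to 1.83 TPM in PGCLCs and was not called. Fut7 was at 0 in 9 libraries. Added together, Fut4, Fut7, Fut9, Fut10 and Fut11 were at 5.51 to 10.8 TPM in stem cells, 15.7 to 17.6 TPM in PGCLCs and 31.5 to 33.0 TPM in PGCs. Of these sums, Fut11 alone was 7.12 to 9.80 TPM in PGCLCs and 15.7 and 17.9 TPM in PGCs. Which of these enzymes make the epitope in these cells was not tested, and the epitope itself was not measured.

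**Figure D3:**
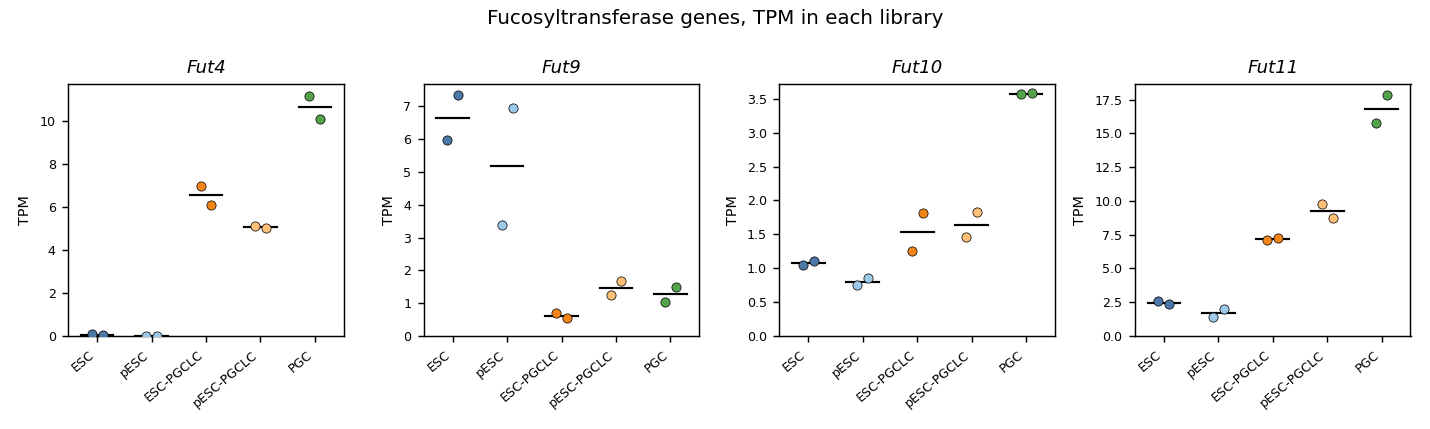
TPM (vertical axes, from 0) of 4 fucosyltransferase genes in each library, with 1 point per library and a bar at each group mean. Fut9 is highest in the stem cell libraries, at 3.39 to 7.35 TPM, where Fut4 is at most 0.0799 TPM.

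A list drawn around SSEA1 synthesis held 16 tested genes other than Fut4, not all of which act on that sugar, such as Fut8. Of these, 4 were called higher and 4 lower in ESC-PGCLCs (median 0.10, against 0.049 over all genes), and 5 higher and 2 lower in pESC-PGCLCs (median 0.46, against 0.22). Besides Fut11, the genes higher in both were Fut8, which adds fucose to the core of N-glycans, and Gmds and Fpgt, which make GDP-fucose or its precursor by separate routes. B3gnt5, which starts lacto-series glycolipids, was lower in both (differences -1.43 and -1.14). Tsta3, which completes GDP-fucose synthesis, fell by 2.42 in ESC-PGCLCs (adjusted p = 9.39e-05) and was at a difference of -0.15 in pESC-PGCLCs (adjusted p = 0.642), and the difference between these was itself called (2.27, adjusted p = 0.00258). B3gnt2 was lower in ESC-PGCLCs, and Fuk, of the fucose salvage route, was higher in pESC-PGCLCs.

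Kit, the SCF receptor gene (chromosome 5, 75574916 to 75656722), was at 3.25 and 3.52 TPM in ESCs, 3.23 and 3.59 TPM in pESCs, 11.7 and 12.2 TPM in ESC-PGCLCs, 11.3 and 10.4 TPM in pESC-PGCLCs and 21.4 and 11.6 TPM in PGCs. The stem cells overlapped one another and lay below every other library, and the lower PGC library lay below both ESC-PGCLC libraries. It rose by 1.56 ± 0.25 (SE, adjusted p = 0.00129) in ESC-PGCLCs and by 1.43 ± 0.25 (adjusted p = 0.00224) in pESC-PGCLCs. The second of these was below 2-fold with the libraries centred on their median (0.70, adjusted p = 0.0272) and after quantile normalization (0.77, adjusted p = 0.0400).

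Kitl, which encodes SCF, was also read in the germ cell libraries and hardly in stem cells. It was at 0.242 to 0.275 TPM in ESCs, 0.0578 and 0.156 TPM in pESCs, 19.7 and 20.3 TPM in ESC-PGCLCs, 35.8 and 36.4 TPM in pESC-PGCLCs and 61.3 and 70.6 TPM in PGCs, with no overlap from one group to the next. Its differences were 4.06 and 5.07 (adjusted p = 1.73e-06 and 1.81e-06), and the induction medium also supplied SCF protein. SCF is known to be made by somatic cells of the gonad. The markers of those cells summed to 7.67 to 10.3 TPM in stem cells, 25.4 to 31.2 TPM in ESC-PGCLCs, 49.3 to 56.5 TPM in pESC-PGCLCs and 97.5 to 117 TPM in PGCs. Among them, Wt1 was at most 0.0931 TPM in stem cells, 7.16 to 13.0 TPM in PGCLCs and 22.4 and 26.2 TPM in PGCs. Lhx9 was at most 0.00886 TPM in stem cells, 6.20 to 9.26 TPM in PGCLCs and 16.3 and 19.1 TPM in PGCs. Amhr2 was lower in ESC-PGCLCs than in stem cells and highest in PGCs. The part of such cells in the Kitl values was not tested, and in bulk samples fewer cells of a type and less RNA per cell cannot be told apart. Of 15 tested genes of Kit signalling, Kitl included, 5 were called higher and 2 lower in ESC-PGCLCs (median 0.42, against 0.049 over all genes), and 6 higher and 0 lower in pESC-PGCLCs (median 0.53, against 0.22). Gab2, a docking protein, and Sh2b3, an adaptor that restrains the receptor, were higher in both, as was Pik3ca, a catalytic subunit of PI3 kinase. Ptpn11 was higher and Src and Shc1 lower in ESC-PGCLCs, and Ptpn6 and Pik3cd were higher in pESC-PGCLCs.

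Cxcr4, on chromosome 1 from 128588199 to 128592293, was at 0 in all 4 stem cell libraries. It was at 5.23 and 5.57 TPM in ESC-PGCLCs, 6.17 and 7.94 TPM in pESC-PGCLCs and 6.33 and 6.25 TPM in PGCs. The pESC-PGCLCs and the PGCs overlapped, and both lay above the ESC-PGCLCs. These levels rest on 86 reads in ESC-PGCLCs, 230 in pESC-PGCLCs and 175 in PGCs. Against the floor of 3 reads in a stem cell library, Cxcr4 was at least 29.1-fold higher in ESC-PGCLCs than in ESCs and at least 32.2-fold higher in pESC-PGCLCs than in pESCs, and the log2 differences were 2.68 ± 0.17 (SE, adjusted p = 1.27e-05) and 3.0 ± 0.17 (adjusted p = 1.27e-05).

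The ligand of Cxcr4 was nearly absent from these libraries. Cxcl12 did not exceed 0.514 TPM in any of the 10 and was not called. Ackr3, which encodes a second receptor that takes up Cxcl12, ran opposite to Cxcr4, with 1.76 to 3.81 TPM in stem cells and 0.165 to 0.491 TPM in PGCLCs and PGCs, and fell by 1.26 and 1.49 in the 2 differentiations (adjusted p = 0.00299 and 0.00144). Of 6 tested genes of Cxcr4 signalling, Cxcl12 and Ackr3 included, 2 were called higher and 2 lower in ESC-PGCLCs (median 0.14, against 0.049 over all genes), and 2 higher and 1 lower in pESC-PGCLCs (median 0.56, against 0.22). Gnai1, an inhibitory G protein subunit, was higher in both, while Gnai2, of the same family, was lower in ESC-PGCLCs.

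**Figure D4:**
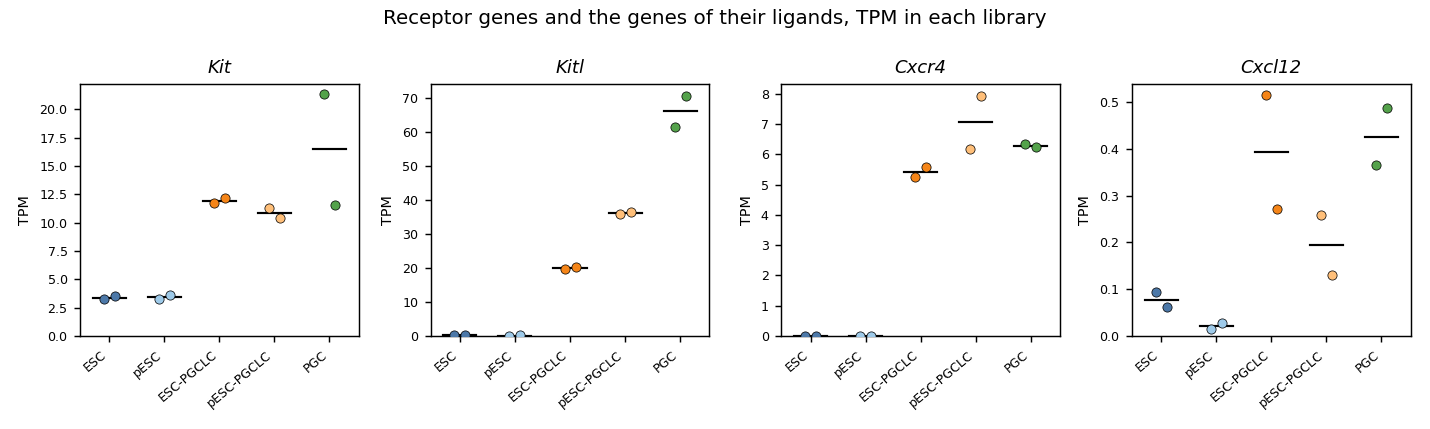
TPM (vertical axes, from 0, of different range) of the receptor genes Kit and Cxcr4 and of the genes of their ligands in each library, with 1 point per library and a bar at each group mean. Kitl reached 61.3 and 70.6 TPM in PGCs, whereas Cxcl12 stayed at or below 0.514 TPM everywhere.

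Alpl, on chromosome 4 from 137741733 to 137796384, encodes the alkaline phosphatase whose staining classically marks PGCs and stem cells. It was at 14.9 and 14.9 TPM in ESCs, 8.92 and 9.81 TPM in pESCs, 4.64 and 4.20 TPM in ESC-PGCLCs, 11.1 and 12.4 TPM in pESC-PGCLCs and 18.0 and 8.29 TPM in PGCs. The PGC libraries spanned the range of ESCs, pESCs and pESC-PGCLCs, and ESC-PGCLCs lay below all other libraries. Alpl fell by 1.55 ± 0.29 on the log2 scale (SE, adjusted p = 0.00309) from ESCs to ESC-PGCLCs, and its difference from pESCs to pESC-PGCLCs was 0.30 ± 0.29 (adjusted p = 0.453), which was negative with the libraries centred on their median (-0.43) and after quantile normalization (-0.35). The difference between the 2 differentiations was called (1.85 ± 0.42, adjusted p = 0.0159), but not after quantile normalization (1.17, adjusted p = 0.0788) nor without ESC replicate 1 or 2, pESC replicate 1, ESC-PGCLC replicate 2 or pESC-PGCLC replicate 1 or 2 (adjusted p from 0.0506 to 0.0669). The other alkaline phosphatase genes of the table, Alppl2 and Akp3, were at or below 0.117 TPM in every library.

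Ifitm1 (chromosome 7, 140967221 to 140969825) and Ifitm3 (chromosome 7, 141009586 to 141010770) encode related small membrane proteins, known as fragilis2 and fragilis, and lie 39761 bases apart. Together with Cd9 they made up 96.4% to 99.8% of the summed TPM of the 9 markers in every library. Ifitm1 was at 987 and 1057 TPM in ESCs, 3029 and 1396 TPM in pESCs, 1087 and 1049.9 TPM in ESC-PGCLCs, 2050.4 and 1809.6 TPM in pESC-PGCLCs and 1307 and 1289 TPM in PGCs. The ESC and ESC-PGCLC libraries overlapped, as did those of pESCs and pESC-PGCLCs, and its differences on differentiation were 0.065 and -0.095 (SE 0.31, adjusted p = 0.908 and 0.849).

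Ifitm3 was at 1928 and 1917 TPM in ESCs, 5655 and 2143 TPM in pESCs, 332 and 299 TPM in ESC-PGCLCs, 840 and 815 TPM in pESC-PGCLCs and 834 and 435 TPM in PGCs. Every stem cell library lay above every PGCLC and PGC library, and ESC-PGCLCs were lowest. It fell by 2.60 ± 0.45 (SE, adjusted p = 0.00182) in ESC-PGCLCs and by 2.07 ± 0.45 (adjusted p = 0.00615) in pESC-PGCLCs. The second fall was not called when the spread came from the compared groups alone (adjusted p = 0.0712), and its size depended on the pESC libraries, with differences of -1.37 without pESC replicate 1 and -2.77 without pESC replicate 2. The ratio of Ifitm1 to Ifitm3 TPM was 0.512 to 0.652 in the stem cells, 3.28 and 3.51 in ESC-PGCLCs, 2.44 and 2.22 in pESC-PGCLCs and 1.57 and 2.96 in PGCs. In pESCs, replicate 1 lay far above replicate 2 in both genes, while the ratio was 0.536 and 0.652.

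Ifitm2, the neighbour of both, was at 2125 to 6757 TPM in stem cells, 266 and 283 TPM in ESC-PGCLCs, 1686 and 1343 TPM in pESC-PGCLCs and 1312 and 670.4 TPM in PGCs. It was called lower in both differentiations (differences -3.05 and -1.47, adjusted p = 0.000916 and 0.0308), but 34.9% of its 100-base stretches also occur in other genes, so its level is uncertain, whereas Ifitm1 and Ifitm3 share none. Of the 5 tested relatives, Ifitm5, known from bone, was called higher in pESC-PGCLCs (2.10, adjusted p = 0.00372), from 0.452 and 0.744 TPM to 4.30 and 7.78 TPM. The remaining relatives were not called in either differentiation.

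**Figure D5:**
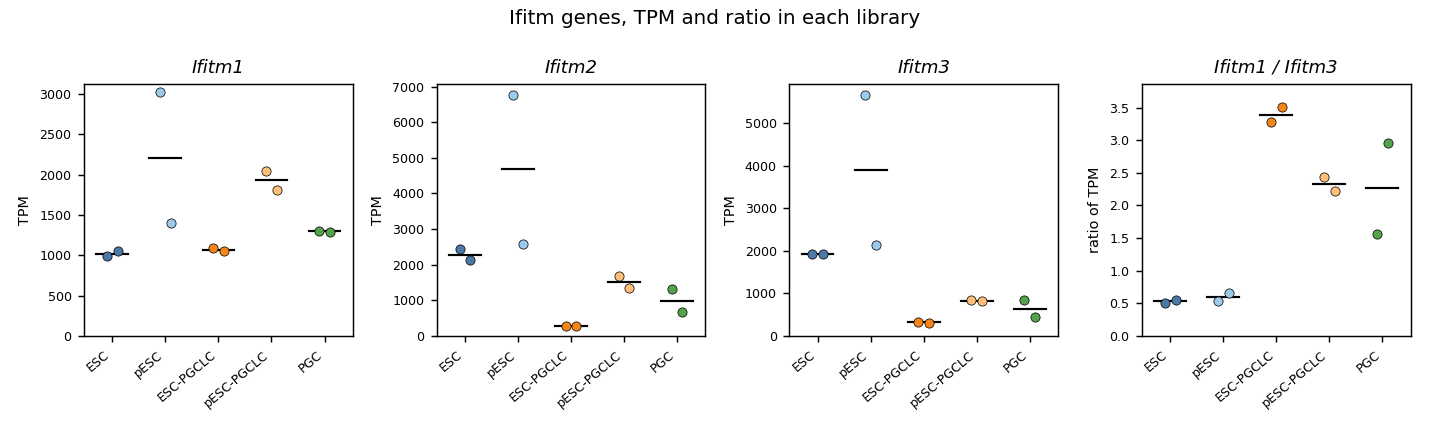
TPM (vertical axes, from 0, of different range) of Ifitm1, Ifitm2 and Ifitm3 and the ratio of Ifitm1 to Ifitm3 in each library, with 1 point per library and a bar at each group mean. Ifitm3 lies at or below 840 TPM in all PGCLC and PGC libraries and Ifitm1 at or above 987 TPM in every library, so that the ratio is below 1 in stem cells and 1.57 to 3.51 elsewhere.

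Cd9, on chromosome 6 from 125460266 to 125494791, encodes a tetraspanin that organises other proteins in the membrane and is needed on the oocyte for fusion with sperm. It was at 1079 and 1126 TPM in ESCs, 869 and 1085 TPM in pESCs, 105 and 99.6 TPM in ESC-PGCLCs, 245 and 236 TPM in pESC-PGCLCs and 185 and 161 TPM in PGCs. ESCs and pESCs overlapped and lay above all others, and pESC-PGCLCs, PGCs and ESC-PGCLCs followed in that order without overlap. It fell by 3.42 ± 0.15 (SE, adjusted p = 3.21e-06) in ESC-PGCLCs and by 2.01 ± 0.15 (adjusted p = 4.15e-05) in pESC-PGCLCs, and the difference between these falls was called (1.41 ± 0.21, adjusted p = 0.00293). Of its sequence, 6.13% of the 100-base stretches are shared with Gm26728, whose exons overlap it.

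The tetraspanins Cd81 and Cd63 fell with Cd9. Cd81 was at 191 to 333 TPM in stem cells, 7.52 and 7.42 TPM in ESC-PGCLCs, 51.4 and 56.9 TPM in pESC-PGCLCs and 42.4 and 32.6 TPM in PGCs, and Cd63 was at 195 to 241 TPM, 11.9 and 12.01 TPM, 50.3 and 46.9 TPM and 23.8 and 32.7 TPM in the same groups. For both, ESC-PGCLCs were lowest, and the difference between the 2 differentiations was called (3.26, adjusted p = 0.00036, and 2.19, adjusted p = 0.000695). Of 11 tested tetraspanins and partners, 2 were called higher and 2 lower in ESC-PGCLCs (median -0.020, against 0.049 over all genes), and 4 higher and 2 lower in pESC-PGCLCs (median 0.57, against 0.22). Epcam, the adhesion molecule that binds tetraspanin complexes and is itself a germ cell surface marker, rose in both, from 22.2 to 33.2 TPM in stem cells to 108 to 145 TPM in PGCLCs, and Adam10, a protease guided by tetraspanins, rose in both as well. Cldn7 and Cd53 were higher in pESC-PGCLCs.

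Pecam1 (CD31), on chromosome 11 from 106654217 to 106750628, is an adhesion molecule of endothelium that germ cells and stem cells also carry. It was at 5.04 and 4.39 TPM in ESCs, 4.11 and 4.83 TPM in pESCs, 6.28 and 7.38 TPM in ESC-PGCLCs, 8.37 and 9.57 TPM in pESC-PGCLCs and 22.4 and 11.4 TPM in PGCs. The groups ranked in this order from low to high, apart from the overlapping stem cells. It was not called in ESC-PGCLCs (0.45 ± 0.28, SE, adjusted p = 0.234) nor, at under 2-fold in TPM + 1, in pESC-PGCLCs (0.87 ± 0.28, adjusted p = 0.0370). In pESC-PGCLCs the mean was 8.97 TPM against 4.47 TPM in pESCs, over 2-fold before 1 was added. The 10 endothelial markers summed to 7.24 to 10.6 TPM in stem cells and 1.96 to 6.44 TPM in the other libraries, and single markers went both ways. Cdh5, which defines endothelium, was at 0 in stem cells and at 0.329 to 1.08 TPM in the other libraries. Tek was at 2.25 to 3.14 TPM in stem cells and 0.178 to 0.947 TPM elsewhere. Vwf was at 1.51 to 1.74 TPM in stem cells and 0.0439 to 0.185 TPM elsewhere. The part of endothelial cells in the Pecam1 values was not tested.

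Among 19 tested further surface antigens of stem and germ cells, 5 were called higher and 5 lower in ESC-PGCLCs (median 0.27, against 0.049 over all genes), and 7 higher and 4 lower in pESC-PGCLCs (median 0.78, against 0.22). Prom1 (CD133), Pdpn (podoplanin), Fgfr2 and Epcam were higher in both, and Cd38, Icam1, Sdc4 and Cdh1 (E-cadherin) were lower in both. Cd38 fell from 10.03 to 17.0 TPM in stem cells to 0.505 to 1.64 TPM in PGCLCs. Fgfr1 was higher and Cd55 lower in ESC-PGCLCs, while Podxl, Cd24a and Cd44 were higher in pESC-PGCLCs.

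Between pESCs and ESCs, limma called 0 of the 9 markers, where 0.781% of all genes were called in either direction. At an unadjusted limma p under 0.05 there was 1 of 9, beside 4838 of the 27259 genes tested. That marker was Ifitm1 (difference 1.01 ± 0.31, SE, adjusted p = 0.140), which voom on recovered reads called (1.13, adjusted p = 0.0383). Both pESC libraries lay above both ESC libraries in Ifitm1 and Ifitm3, and below them in Alpl (difference -0.62 ± 0.29, adjusted p = 0.335). Without pESC replicate 2, which leaves the high replicate 1 alone, Ifitm1 (1.57) and Ifitm3 (1.56) were called. Over all genes 45 were called higher and 168 lower as deposited and 161 higher and 30 lower with the libraries centred on their median.

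Between both kinds of PGCLC, Cd9 and Alpl were higher in pESC-PGCLCs and the genes of the sort and of the receptors were not called. Thus 2 of 9 were called, beside 10.3% of all genes called higher, and 0 were called lower, beside 3.08% of all genes. Alpl differed by 1.23 ± 0.29 (SE, adjusted p = 0.0191) and Cd9 by 1.23 ± 0.15 (adjusted p = 0.00111). Ifitm3 (1.39 ± 0.45, adjusted p = 0.0579) and Ifitm1 (0.85 ± 0.31, adjusted p = 0.0919) were also higher in both pESC-PGCLC libraries but were not called. The other differences were -0.13 for Kit, -0.098 for Itgb3, -0.31 for Fut4, 0.32 for Cxcr4 and 0.35 for Pecam1, with adjusted p from 0.213 to 0.786. The difference between the 2 differentiations was called for 2 of 9, Alpl and Cd9, beside 15.5% of all genes called with a higher value for the parthenogenetic cells.

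These 2 calls changed with the scaling. All genes had a median difference of 0.12 and split into 2812 higher and 839 lower as deposited, while with the libraries centred on their median that median was -0.29 and the split was 1460 higher and 1891 lower. Alpl and Cd9 were then at 0.83 and 0.82, and at 0.91 and 0.90 after quantile normalization, all under 2-fold. Alpl also lost its call without any 1 of the 4 libraries, with adjusted p from 0.0701 to 0.108. The ESC-PGCLC libraries were the shallowest of the 10 and the pESC-PGCLC libraries had more haemoglobin RNA, and the part of either in these differences was not tested. The interaction over all genes split into 4236 higher and 961 lower as deposited and 1727 higher and 4062 lower after centring, where Cd9 was at 0.67 (adjusted p = 0.0250).

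Against ESC-PGCLCs, PGCs had more of several markers. Of the 9, 2 were called higher, Alpl (1.29 ± 0.29, SE, adjusted p = 0.0141) and Pecam1 (1.12 ± 0.28, adjusted p = 0.0201), beside 12% of all genes. Itgb3 (0.78 ± 0.16, adjusted p = 0.00901), Cd9 (0.75 ± 0.15, adjusted p = 0.00898) and Fut4 (0.63 ± 0.16, adjusted p = 0.0208) passed the adjusted p at under 2-fold. Kit and Cxcr4 differed by 0.37 and 0.19 (adjusted p = 0.3003 and 0.449). Both calls depended on PGC replicate 1, in which Kit, Alpl and Pecam1 were well above replicate 2, since without it Alpl was at 0.78 and Pecam1 at 0.66. They were also lost without either ESC-PGCLC library (adjusted p from 0.0552 to 0.0968) and with the libraries centred on their median (0.69 and 0.52), where all genes split into 712 higher and 2003 lower in place of 3260 and 512.

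Against pESC-PGCLCs, 0 of the 9 markers were called in PGCs by limma, beside 3.67% of all genes in either direction. At an unadjusted limma p under 0.05 there were 4 of 9, beside 7955 of the 27259 genes tested. Fut4 (0.94 ± 0.16, SE, adjusted p = 0.0224) and Itgb3 (0.88 ± 0.16, adjusted p = 0.0249) passed the adjusted p at under 2-fold in TPM + 1. Their mean TPM, 10.6 against 5.07 and 8.30 against 4.04, differed by over 2-fold before 1 was added. Voom on recovered reads called these 2 (1.04 and 1.01). Without PGC replicate 2, Fut4 (1.00) and Pecam1 (1.23) were called. All genes split into 564 higher and 436 lower as deposited and 293 higher and 821 lower after centring. In Itgb3, Fut4 and Pecam1 both PGC libraries lay above all 4 PGCLC libraries, in Ifitm1 and Cd9 they lay between the 2 kinds of PGCLC, and in Kit, Cxcr4, Alpl and Ifitm3 they overlapped with 1 kind.

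In PGCs against ESCs and against pESCs, 5 of 9 markers were called higher (Kit, Itgb3, Fut4, Cxcr4 and Pecam1) and 2 lower (Ifitm3 and Cd9). Among all genes, 23.4% were called higher and 9.17% lower against ESCs, and 26.9% higher and 7.29% lower against pESCs. These comparisons share their PGC libraries. Fut4 (3.47 and 3.54) and Itgb3 (3.15 and 3.14) rose most, followed by Cxcr4 (2.87 in both), Kit (1.94 and 1.93) and Pecam1 (1.58 and 1.64), with adjusted p from 3.73e-06 to 0.00202. By reads, Itgb3 stood 171 times above ESCs (78.4 to 468) and 142 times above pESCs (64.8 to 388), and Fut4 226 times above ESCs (87.9 to 833) and at least 119-fold above pESCs. Cd9 fell by 2.67 and 2.48, and Ifitm3 by 1.67 and 2.53 (adjusted p = 0.0142 and 0.00179). The Ifitm3 call against ESCs was lost without ESC replicate 1, ESC replicate 2 or PGC replicate 2 (adjusted p = 0.0729, 0.0711 and 0.0925), and that against pESCs with the compared groups alone (0.0637), while the difference from pESCs was -1.83 without pESC replicate 1. Alpl differed by -0.26 and 0.36 and Ifitm1 by 0.35 and -0.66, and neither was called, although Ifitm1 was called lower than in pESCs after median centring (-1.59) and without pESC replicate 2 (-1.22). Pecam1 was under 2-fold after centring (0.98 and 0.71) and quantile normalization (0.95 and 0.77), and against pESCs it was not called with the compared groups alone (adjusted p = 0.05005). The all-gene splits, 6372 higher to 2500 lower and 7320 to 1987, were 3447 to 4736 and 2836 to 6857 after centring.

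Among the lists of related genes, 8 of 16 genes of the list around SSEA1 synthesis were called higher in PGCs than in ESCs and 3 lower, and 8 higher and 2 lower than in pESCs (medians 0.86 and 0.69, against 0.25 and 0.32 over all genes). Of the Kit signalling genes, 8 of 15 were higher and 0 lower in each (medians 1.02 and 1.25). The counts were 3 higher and 1 lower, and 4 and 1, of 15 integrin genes (medians 0.39 and 0.37). They were 3 and 2, and 3 and 1, of 6 Cxcr4 signalling genes (medians 0.81 and 0.86). They were 5 and 2, and 6 and 2, of 11 tetraspanins and partners (medians 0.88 and 1.10). Of 19 further surface antigens they were 7 and 3, and 12 and 3 (medians 0.82 and 1.04), with Podxl reaching 16.4 and 13.4 TPM in PGCs. Over all genes, 23.4% were called higher and 9.17% lower than in ESCs, and 26.9% and 7.29% than in pESCs. The integrin counts were near these shares.

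Across the 10 libraries, the patterns of the markers fell into unlike forms. For each except Ifitm1, the 3 genes with the highest Pearson correlation of log2(TPM + 1) were taken from the 11187 genes whose mean reached 5 TPM in some group. The points share 5 groups and the library totals, so the values describe these libraries alone. Nearest to Itgb3 were Rassf3 (r = 0.9990), Gata2 and Prss23, and nearest to Fut4 were Gata2 (0.9987), Slain1 and Bnc1. Gata2 averaged 0.0870 TPM in ESCs, 0.107 TPM in pESCs, 13.0 TPM in ESC-PGCLCs, 9.84 TPM in pESC-PGCLCs and 25.5 TPM in PGCs. Nearest to Cxcr4 were Carf (0.9987), Adad1 and Rhox2g, and nearest to Kit were Nek4 (0.994), Nlk and Smad6. Cd9 was most like Bvht (0.997), Asns and Trim13, Ifitm3 like Gm10123 (0.986), Gm26631 and Cox5a, Alpl like Phkg2 (0.988), Pgpep1 and Gm6169, and Pecam1 like Prpf18 (0.994), Bcar1 and Mapk7.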

How the data were processed

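RNA sequencing of 10 mouse libraries, 2 in each of 5 groups, was used. Per the labels, libraries were made with a NEBNext Ultra kit, whereas the study's methods describe Smart-seq2 from sorted cells. The submitters' processing notes name HISAT2, Bowtie2, RSEM, R 3.4.2, DESeq2 and the build mm10, and the study's methods name Hisat2 and Feature-counts. The authors deposited TPM for 36066 genes by symbol, and 35861 symbols (99.4%) matched 1 gene of GENCODE M21. TPM times exon length gave whole reads within 0.02 for 94.7% to 94.9% of values above 0, which gave the depth, the floors of 3 reads and the reads for voom.

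Values were transformed as log2(TPM + 1) and fitted with limma 3.58.1 in R 4.3.3, with 1 mean for each of the 5 groups, variances that follow the mean, 5 residual and 2.81 prior degrees of freedom, and Benjamini-Hochberg adjustment over all 27259 genes of a comparison. A count model on deposited counts was not run, because the values are TPM. On simulated data the procedure recovered most of the changed genes, and false calls made up a larger share of its calls than the nominal 0.05. Python 3.11.15 with pandas 2.3.3, numpy 2.4.6, scipy 1.17.1 and matplotlib 3.10.9 made tables and figures. Intervals are exact binomial and, like the floors, cover counting error alone. Promoter sequences are from RefSeq (GRCm38.p6), with an entry for 7 of the 9 genes.

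The members and lists were chosen with earlier results of these data known. Named are the 9 markers, genes of a list that were called in the comparison at hand or are direct partners of a marker, and the 3 genes nearest to each marker by Pearson correlation, which for Ifitm1 are not reported here. Some marker genes of other cell types are named to check the labels. The fit was repeated with 0.1 as pseudocount, with a 1 TPM filter and without any, after quantile normalization, after median centring of each library on 9024 genes that reached 1 TPM throughout, with the compared groups alone, by voom on recovered reads, with the replicate number as a block, and leaving out each replicate.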

Additional observations from a re-analysis of the deposited data

Results flagged for a closer look

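Alpl and Cd9 were flagged because their change from stem cells to PGCLCs differed between the parthenogenetic and the fertilized cells. The test was limma's interaction term over all genes. It called 2 of 9 markers, both higher for the parthenogenetic cells, beside 15.5% of all genes called higher. All genes split into 4236 higher and 961 lower as deposited and 1727 higher and 4062 lower with median centring. With so few markers, these calls do not set the markers apart from all genes. For Alpl, the change was higher by 1.85 on the log2 scale in the parthenogenetic cells (SE 0.42, adjusted p = 0.0159), with a fall in ESC-PGCLCs and a difference of 0.30 in pESC-PGCLCs. For Cd9 it was higher by 1.41 (SE 0.21, adjusted p = 0.00293), with a fall in both. With quantile normalization, the Alpl term was 1.17 (adjusted p = 0.0788), and without ESC replicate 1 or 2, pESC replicate 1, ESC-PGCLC replicate 2 or pESC-PGCLC replicate 1 or 2 its adjusted p was 0.0506 to 0.0669. With median centring, the Cd9 term was 0.67, which is under 2-fold.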

How the results depend on the processing

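Of 81 differences (9 markers, 9 comparisons), 33 were called, and none of these changed direction under any alternative that was run. Counts of called markers stayed within 1.5 times for both differentiations and for PGCs against either kind of stem cell. For pESCs against ESCs the count of markers was 0, with 1 by voom on recovered reads. Over all genes, 213 were called in the main fit and 459 of 27091 by voom. For pESC-PGCLCs against ESC-PGCLCs the count of markers was 2, with 0 by quantile normalization and 0 by median centring. It was 3 with the compared groups alone and 3 with a filter of 1 TPM. Fitting the replicate number as a block gave 3, with Ifitm3 added. Over all genes, 3651 were called in the main fit, 3053 by quantile normalization and 3351 by median centring. The compared groups alone called 2895, the filter 3776 of 17694 and the block 3666. Same-numbered deviations had correlations from -0.054 to 0.26 over 14037 genes, so the numbers do not pair the libraries, and the block changed no other call. For PGCs against ESC-PGCLCs the count of markers was 2, with 0 by quantile normalization, median centring or the compared groups alone. Over all genes these called 1906, 2715 and 0, against 3772 in the main fit. The compared groups alone therefore say nothing about the markers in particular. For PGCs against pESC-PGCLCs the count of markers was 0, with 2 by voom, where all genes went from 1000 to 1956. For the interaction the count of markers was 2, with 1 by quantile normalization or median centring. Over all genes these called 3871 and 5789, against 5197 in the main fit.

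Uncalled differences changed sign as follows. Median centring adds 1 constant to all genes of a library, so within a comparison it moves every gene by the same amount. For the other alternatives the cause was not tested. By median centring, PGCs against ESC-PGCLCs gave -0.33 for Ifitm1, -0.42 for Cxcr4 and -0.23 for Kit. PGCs against pESCs gave -0.57 for Alpl, PGCs against ESCs -0.25 for Ifitm1, and PGCs against pESC-PGCLCs -0.14 for Alpl. The PGCLCs gave -0.059 for Pecam1 and -0.087 for Cxcr4, and pESC-PGCLCs against pESCs -0.43 for Alpl. The stem cells gave 0.27 for Pecam1, 0.15 for Cd9 and 0.26 for Fut4, and the interaction -0.21 for Ifitm3, -0.42 for Cxcr4 and -0.33 for Pecam1. Fut4 had 4 reads in ESCs and 0 in pESCs, so its 0.26 is mainly the shift from centring. By quantile normalization, Alpl was at -0.35 in pESC-PGCLCs against pESCs, -0.16 in PGCs against pESC-PGCLCs and -0.51 in PGCs against pESCs. Cxcr4 was at -0.43 and Kit at -0.21 in PGCs against ESC-PGCLCs, Cxcr4 at -0.0095 between PGCLCs and in the interaction, Ifitm1 at 0.062 in pESC-PGCLCs against pESCs and 0.033 in the interaction, and Pecam1 at -0.16 in the interaction and 0.18 between stem cells. By voom, the interaction was -0.12 for Cxcr4, 1.33 for Fut4 and 0.29 for Itgb3, the stem cells 0.056 for Pecam1 and -0.51 for Itgb3, and PGCs against pESC-PGCLCs -0.0097 for Alpl. With a pseudocount of 0.1, Fut4 was at 0.20 in the interaction.

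Leaving out 1 library moved Kit from -0.052 to 0.065, Itgb3 from -0.066 to 0.094 and Pecam1 from -0.16 to 0.033 between stem cells, and Kit from -0.041 to 0.79 in PGCs against ESC-PGCLCs. Against pESC-PGCLCs it moved Alpl from -0.46 to 0.57, Ifitm3 from -0.93 to 0.010 and Cxcr4 from -0.29 to 0.023. Alpl moved from -0.16 to 0.87 in PGCs against pESCs and from -0.77 to 0.26 against ESCs. Ifitm1 moved from -0.65 to 0.46 in pESC-PGCLCs against pESCs and from -0.72 to 0.40 in the interaction, and Ifitm3 from -0.17 to 1.23 in the interaction. Where a group is left with 1 library, that library is assumed to vary like the others. Depth limits the stem cell values of Itgb3, Fut4 and Cxcr4, which rest on 0 to 6 reads.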
